A study of Mus musculus with 9 samples.

Results

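The collagen genes are the subject: all 42 genes measured on the arrays whose symbol names a collagen chain (Col, a type number, the letter a and a chain number), of 18194 genes in all. Each gene was read from its brightest probe set (by the mean of all 9 arrays), among 82 collagen probe sets that match 1 gene alone. They were grouped, by how the chains assemble, into 11 fibrillar chains, 9 basement membrane chains, 8 network-forming chains, 9 FACIT chains (fibril-associated collagens with interrupted triple helices) and 4 transmembrane chains, with Col26a1 in no class. Of 44 such symbols in RefSeq, Col28a1 and Col6a6 were not among the genes measured.

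RNA came from luminal differentiated (LD) cells of the mouse mammary gland, from organoids grown from mammary stem cells (MaSCs), and from organoids grown from yMaSCs, with 3 biological samples of each, lettered A, B and C. LD cells were sorted by FACS as EpCAM-high, CD49f-low, CD61-negative and lineage-negative cells, and their RNA was taken without culture; per the study's methods the donors were virgin C57BL/6J mice of 8 to 12 weeks. yMaSCs were LD cells infected with lentiviruses for the transactivator rtTA and for wild-type YAP under a tetracycline-inducible promoter and given doxycycline for 7 days; MaSCs were the sorted stem cell-enriched fraction of native glands. Both kinds of organoid grew without doxycycline in Matrigel, under a medium that held EGF, bFGF, heparin, noggin and R-Spondin1. No sample of YAP-free LD cells in culture is among the arrays, so freshness of the cells, culture and origin cannot be told apart in any comparison with LD cells. The pooling of animals within a sample is not stated for these arrays.

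Collagens are trimers of chains wound in a triple helix. Fibrillar types build the cables of connective tissue, FACITs coat those fibrils, types IV, VII, XV and XVIII belong to basement membranes and their anchorage, types VI, VIII and X form beaded or sheet-like networks, and transmembrane types such as type XVII hold cells to the matrix. In the mammary gland stromal fibroblasts make most fibrillar collagen, while the basal, myoepithelial layer of the epithelium rests on the basement membrane and helps to make it.

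The values are log2 intensities, and they are compared between arrays within a gene, never between genes. The lower quartiles of the arrays lay at 3.47 to 3.59 and their medians at 5.11 to 5.15. Of the collagens, 14 lay above the array's median on all 9 arrays, 15 on none and 13 on some. LD sample B stood apart: Fabp4, a marker of adipocytes and capillary endothelium, was at 10.92 in it against 4.20 and 3.70 in LD A and C, and Cdh5, the endothelial cadherin, at 6.32 against 3.35 and 3.27. Other adipocyte markers did not set LD B apart: Adipoq, Cidec, Lep and Retn were at 3.28, 2.91, 3.62 and 5 in it. In LD A and C they were at 2.71 to 4.85. The summed intensity of 8 endothelial and pericyte markers ran from 155 to 880 in LD cells, highest in LD B, and from 126 to 160 in organoids. The sum of 10 fibroblast markers ran from 3436 to 3836 in LD cells and from 648 to 878 in organoids, but most of it in LD cells came from Gsn, at 11.6 to 11.83 there and 8.31 to 9.17 in organoids. Without Gsn, left out after its values were seen, the sum of the other 9 ran from 192 to 331 in LD cells, highest in LD B, and from 283 to 435 in organoids. The largest part of that sum in organoids came from Pdgfra, at 7.11 to 7.72 there and 5.08 to 5.18 in LD cells. On average 7 of the 10 fibroblast markers were lower in each kind of organoid than in LD cells, and 3 were higher. Ptprc, a marker of all leukocytes, was at 8.17 to 8.94 in LD cells and 2.64 to 2.99 in organoids, the largest fall of 8 leukocyte markers. On average 7 of the 8 were lower in each kind of organoid than in LD cells. Cd14 was higher, at 12.34 to 12.93 in LD cells and 12.56 to 13.13 in organoids. The summed intensity of the 8 overlapped, at 6217 to 8424 in LD cells and 6317 to 9129 in organoids. All 9 measured luminal markers lay above the median on every LD array and on every organoid array, so that count does not tell the groups apart; their summed intensity was 80887 to 88651 in LD cells and 34102 to 41398 in organoids. Organoids C had higher markers of dividing cells than organoids A and B: the Mki67 intensity of A and B never passed 5.39, while both C lay above 8.

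**Figure D1:**
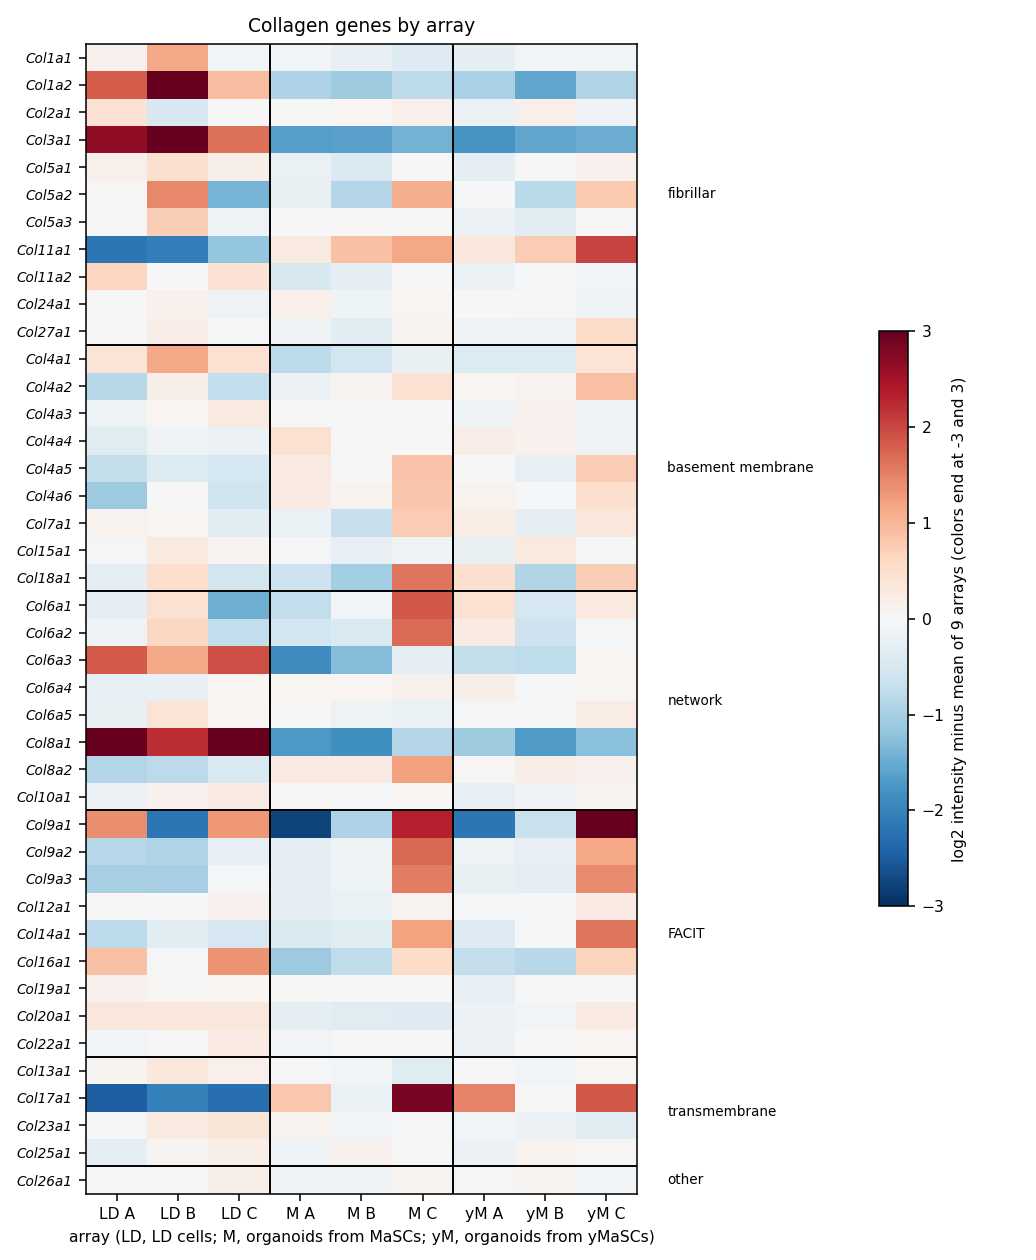
Log2 intensity of 42 collagen genes (rows, by class) in the 9 arrays (columns), as the difference from the gene's mean over all arrays; red is above that mean and blue below it, and colors end at -3 and 3. Col3a1, Col1a2, Col8a1 and Col6a3 are red in the LD columns, Col17a1 and Col11a1 in the organoid columns, and several FACIT rows in the 2 columns of letter C.

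Measured against LD cells, the collagens split. In MaSC organoids 14 of 42 passed the test (limma, p under 0.05 after Benjamini-Hochberg adjustment across the 18194 genes), 5 higher and 9 lower, where 37.3% of all genes passed, 22.1% higher and 15.2% lower. In yMaSC organoids 9 passed, 3 higher and 6 lower, where 35.9% of all genes passed, 21.6% higher and 14.3% lower. The share of collagens that passed was 33.3% and 21.4%, near or below that of all genes, and their median difference was -0.07 and -0.04 log2, against -0.02 and -0.01 over all genes. The groups did not overlap for 16 collagens in the first comparison and 15 in the second, where 47.9% and 44.9% of all genes did not. Without organoid A from MaSCs 9 collagens passed in place of 14, and the 9 without it were all among the 14. The same 3 LD arrays serve both comparisons. In both, Col17a1, Col11a1 and Col8a2 rose and Col3a1, Col1a2, Col8a1, Col6a3 and Col20a1 fell; over all genes 20.7% rose and 13.1% fell in both. In these bulk samples fewer cells of a type and less RNA per cell cannot be told apart.

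**Figure D2:**
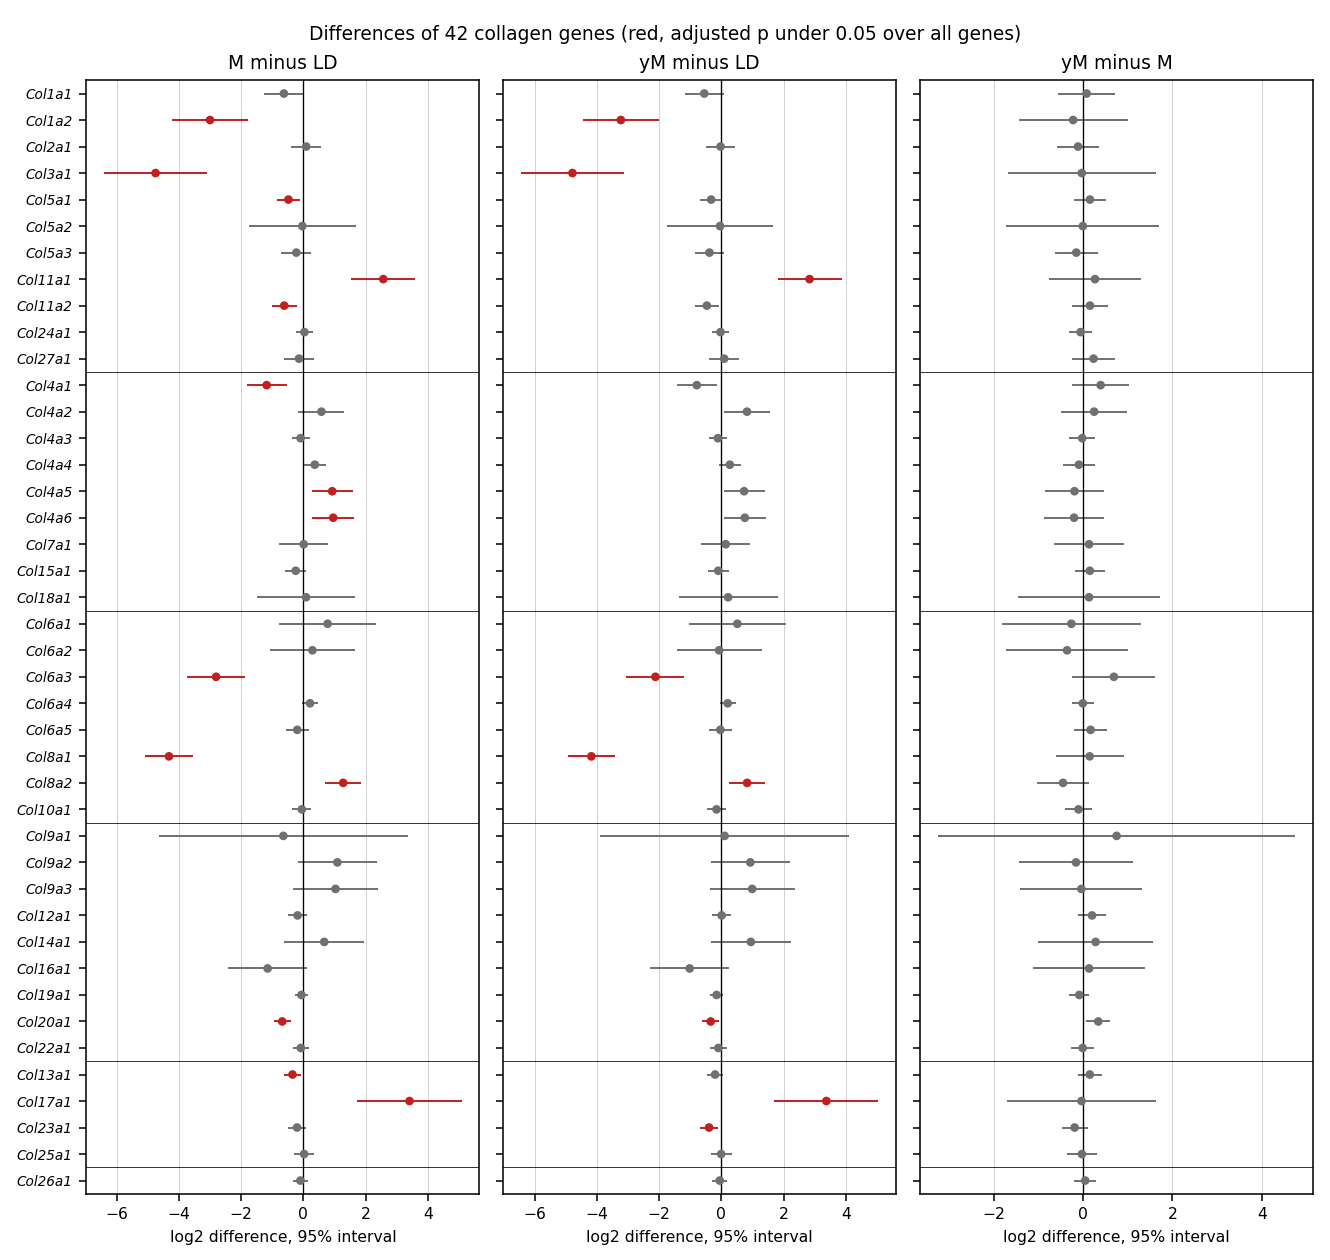
Log2 difference with its 95% interval (horizontal axis) for each of 42 collagen genes (vertical axis, by class): MaSC organoids minus LD cells (left), yMaSC organoids minus LD cells (middle) and yMaSC organoids minus those from MaSCs (right), red where the adjusted p over all genes was under 0.05. There are 14 red points on the left, 9 in the middle and 0 on the right.

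Among the transmembrane collagens, Col17a1 rose the most of all 42 in both comparisons. It encodes the collagen of hemidesmosomes, the rivets that tie basal epithelial cells to the basement membrane. The 250 bases before its RefSeq transcription start, at chr19:47692043-47692292 on the minus strand of GRCm38.p6, are shown because the gene had the greatest rise, and capitals mark 2 matches to TATAAA and 1 to CCAAT, searched on both strands.
Col17a1: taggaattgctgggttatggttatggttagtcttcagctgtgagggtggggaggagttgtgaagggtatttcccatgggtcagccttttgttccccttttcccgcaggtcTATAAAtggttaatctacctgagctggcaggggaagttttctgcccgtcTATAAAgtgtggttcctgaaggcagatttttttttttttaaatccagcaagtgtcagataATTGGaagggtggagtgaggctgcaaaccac
Its log2 intensity was 3.59, 4.03 and 3.80 in LD cells A, B and C. It was 6.88, 5.86 and 8.92 in organoids A, B and C from MaSCs, and 7.55, 6.05 and 7.94 in those from yMaSCs. Every organoid lay well above every LD sample, while among organoids B was lowest and C highest in both kinds. The difference from LD cells was 3.41 ± 0.74 log2 (SE), or 10.7-fold, in MaSC organoids (adjusted p = 0.0061) and 3.37 ± 0.74, or 10.4-fold, in yMaSC organoids (adjusted p = 0.00678). The LD values were near the lower quartile of the arrays. Against LD cells the other hemidesmosome genes went different ways: of 5 measured, Cd151, a tetraspanin of the complex, rose by 0.41 and 0.38 log2 (adjusted p = 0.0316 and 0.044), Plec, the plectin that links it to keratin, had -1.68 and -1.67 (adjusted p = 0.000295 and 0.000322), and Itga6, Itgb4 and Dst did not pass. Over the 9 arrays the genes most like Col17a1, of 1254 with an SD over 1, were Slit2, Gucy1b1, Slc6a2, Krt5 and Wif1, with Pearson's r between 0.975 and 0.989, a description over 9 arrays in 3 groups. Krt5, a keratin of basal cells, was at 5.69 to 6.25 in LD cells and 7.79 to 9.96 in organoids.

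The other 3 transmembrane collagens had small differences. Col13a1, found at cell-matrix and neuromuscular contacts, had -0.35 log2 in MaSC organoids (adjusted p = 0.0429) and -0.20 in those from yMaSCs (adjusted p = 0.215). It was at 3.60, 3.83 and 3.66 in LD cells against 3.47, 3.42 and 3.15, and 3.47, 3.44 and 3.57. Its call was lost without any 1 of LD B, LD C or the 6 organoids (adjusted p = 0.0518 to 0.139), and it lay below the median on every array. Col23a1 was at 3.58, 3.88 and 3.98 in LD cells, 3.73, 3.52 and 3.58 in MaSC organoids and 3.52, 3.44 and 3.29 in yMaSC organoids. It had -0.40 in yMaSC organoids (adjusted p = 0.0407) and -0.20 in those from MaSCs (adjusted p = 0.257), and lost its call without any 1 of LD B, LD C or the 6 organoids (adjusted p = 0.055 to 0.119). Another Col23a1 probe set had -0.80 and -0.59 and passed in both (adjusted p = 0.004 and 0.0179 over all probe sets). Col25a1, a neuronal collagen, had 0.02 and -0.01.

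The fibrillar class held the deepest fall, that of Col3a1, and the rise next in size to that of Col17a1, that of Col11a1. Of 11 chains, 1 rose and 4 fell in MaSC organoids, and 1 rose and 2 fell in yMaSC organoids. Of all genes 22.1% and 21.6% rose, and 15.2% and 14.3% fell. Col3a1 encodes the only chain of type III, the fine fibers of skin, vessels and stroma. Its upstream 250 bases, at chr1:45311288-45311537 on the plus strand, are shown because the gene had the greatest fall, with capitals at 1 match to GGAATG (the core that TEAD, the DNA partner of YAP, is known to bind), 1 to TATAAA and 2 to AACAAT (a SOX core), the latter overlapping each other.
Col3a1: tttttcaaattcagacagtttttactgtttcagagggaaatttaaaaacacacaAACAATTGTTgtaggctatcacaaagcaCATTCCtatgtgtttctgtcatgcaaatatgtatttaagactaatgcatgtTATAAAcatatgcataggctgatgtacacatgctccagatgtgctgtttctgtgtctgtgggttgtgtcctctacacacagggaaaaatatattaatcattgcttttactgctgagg
Col3a1 was at 7.01, 9.55 and 6.0 in LD cells A, B and C. It was at 2.68, 2.70 and 2.92 in MaSC organoids and 2.56, 2.78 and 2.86 in yMaSC organoids. The LD samples were spread over more than 3 log2 with B highest, whereas all 6 organoids sat below the lower quartile. The difference was -4.75 ± 0.73 log2 in MaSC organoids (adjusted p = 0.00103) and -4.79 ± 0.73 in yMaSC organoids (adjusted p = 0.00105), with organoid values at the floor, where lower levels cannot be read. LD B, the sample with high endothelial markers and high Fabp4, lay highest, and without it the differences were -3.74 and -3.77 (adjusted p = 5.39e-05 and 5.57e-05). The mean of both probe sets gave -2.87 and -2.85, and the second probe set alone had -0.98 and -0.92 without passing (adjusted p = 0.0724 and 0.0901 over all probe sets).

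Type I collagen, the main fibril of connective tissue, is built of Col1a1 and Col1a2 chains. Col1a2 was at 6.83, 8.48 and 5.93 in LD cells, 4.07, 3.94 and 4.22 in MaSC organoids, and 4.02, 3.44 and 4.09 in yMaSC organoids. As for Col3a1, LD B was highest and no organoid reached the lowest LD sample. Col1a2 differed by -3.0 ± 0.54 log2 (adjusted p = 0.0023) and -3.23 ± 0.54 (adjusted p = 0.00166), and by -2.30 and -2.53 without LD B (adjusted p = 0.00065 and 0.000454). Over the mean of its 3 probe sets the differences were -1.67 and -1.79. Its partner Col1a1 was at 4.49, 5.49 and 4.27 in LD cells and 3.97 to 4.28 in the 6 organoids, and differed by -0.63 (adjusted p = 0.113) and -0.55 (adjusted p = 0.162). A second, dimmer Col1a1 probe set had -0.95 and -0.84 and passed in both (adjusted p = 0.0022 and 0.0044 over all probe sets), so the call for Col1a1 depends on the probe set. Of 10 fibroblast markers 8 were highest among LD cells in LD B, such as Dpt, at 6.46 against 4.18 and 3.69. Against LD cells 3 of the 10 fell in each kind of organoid (Gsn, Pi16 and Thy1), where 15.2% and 14.3% of all genes fell. Pdgfra rose, from 5.08 to 5.18 in LD cells to 7.11 to 7.72 in organoids, where 22.1% and 21.6% of all genes rose, and 6 did not pass. The part of stromal RNA in these LD values was not tested.

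Col11a1, a minor fibrillar chain best known from cartilage, where it sets fibril thickness, rose. The upstream window at chr3:114030290-114030539 on the plus strand held 2 matches to GGGCGG (a GC box, the site that Sp1 is known to bind) and 1 to CCAAT.
Col11a1: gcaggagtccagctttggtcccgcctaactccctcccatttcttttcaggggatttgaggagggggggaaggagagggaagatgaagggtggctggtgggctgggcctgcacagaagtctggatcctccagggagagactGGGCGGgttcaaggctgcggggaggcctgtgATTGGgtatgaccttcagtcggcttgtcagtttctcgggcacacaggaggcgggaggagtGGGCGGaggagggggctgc
It was at 5.98, 6.09 and 6.98 in LD cells, 8.42, 9.04 and 9.30 in MaSC organoids, and 8.47, 8.91 and 10.17 in yMaSC organoids. The groups did not overlap and letter C was highest within each of the 3 groups. Col11a1 rose by 2.57 ± 0.45 log2 (5.94-fold, adjusted p = 0.00214) and by 2.83 ± 0.45 (7.13-fold, adjusted p = 0.00136), and its second probe set by 3.04 and 3.34 (adjusted p = 0.0013 and 8e-04 over all probe sets). Col11a2 and Col2a1, chains it is known to pair with, did not pass upward. Col11a2 was at 4.47, 3.85 and 4.26 in LD cells, 3.35, 3.57 and 3.81 in MaSC organoids and 3.65, 3.78 and 3.75 in yMaSC organoids, below the median on every array. It differed by -0.62 (adjusted p = 0.0219) and -0.47 (adjusted p = 0.0674), the first lost without LD A, LD C, or organoid A or B from MaSCs (adjusted p = 0.0612 to 0.0845). Col2a1, the main cartilage fibril, was at 3.69 to 4.6 over all arrays and differed by 0.09 and -0.03.

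Type V chains start fibrils and share them with type I. Col5a1 was at 5.12, 5.45 and 5.16 in LD cells, 4.77, 4.54 and 4.98 in MaSC organoids, and 4.69, 4.95 and 5.10 in yMaSC organoids. It had -0.48 (adjusted p = 0.042) and -0.33 (adjusted p = 0.144), the first lost without LD A, B or C, organoid A or B from MaSCs, or organoid B from yMaSCs (adjusted p = 0.0522 to 0.146). That call was also lost with the mean of its probe sets. The dimmer Col5a1 probe sets had -0.05 and -0.34 in MaSC organoids without passing (adjusted p = 0.683 and 0.293 over all probe sets). Col5a2 spread widely within each group and its differences were -0.03 and -0.04; it is taken up with the letters. Col5a3, Col24a1 and Col27a1 had differences from -0.38 to 0.09 that did not pass. A second Col27a1 probe set had 0.47 and 0.54 and passed in both comparisons (adjusted p = 0.0204 and 0.0111 over all probe sets), against -0.14 and 0.09 for the brighter one.

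**Figure D3:**
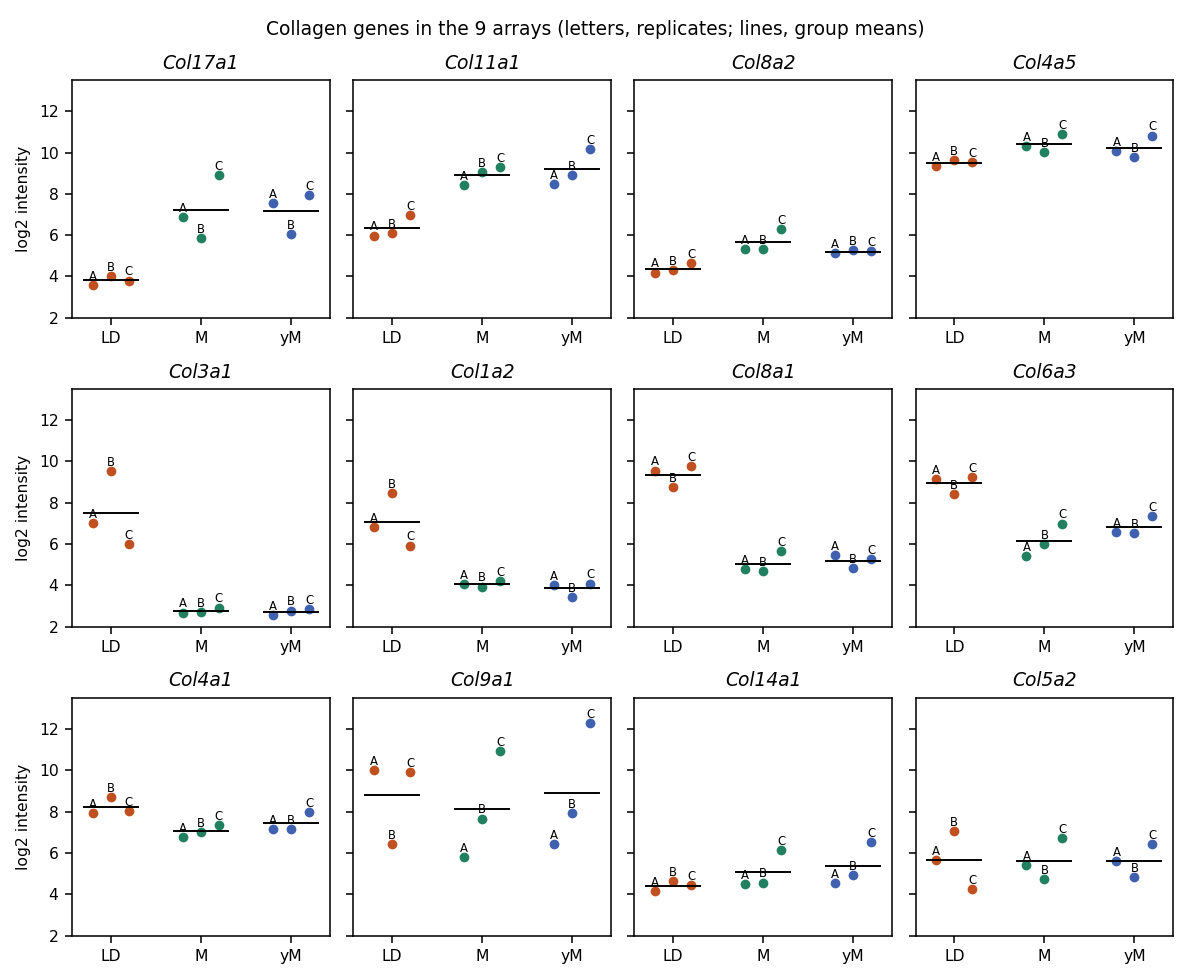
Log2 intensity (vertical axis) of 12 collagen genes, where LD marks LD cells, M the MaSC organoids and yM those of yMaSCs, with 1 point per array, its letter above it and a line at each group's mean. Col17a1 and Col11a1 are higher in all 6 organoids than in any LD sample and Col3a1, Col1a2, Col8a1 and Col6a3 lower, while Col9a1 and Col14a1 are highest in organoids C.

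The network class showed chains of 1 collagen moving in opposite directions. Type VIII, a sheet-forming collagen known from vessel walls and the membrane behind the cornea, has the chains Col8a1 and Col8a2. Col8a1 had the lowest adjusted p of all collagens, and its upstream window at chr16:57754738-57754987 on the minus strand is shown for that; it held 4 matches to GGGCGG, all on the other strand, where they read CCGCCC.
Col8a1: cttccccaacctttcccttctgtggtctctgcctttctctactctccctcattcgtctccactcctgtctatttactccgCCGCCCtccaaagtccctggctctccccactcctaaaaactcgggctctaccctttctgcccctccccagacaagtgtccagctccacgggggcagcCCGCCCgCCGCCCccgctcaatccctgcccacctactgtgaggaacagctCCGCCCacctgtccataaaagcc
Col8a1 was at 9.56, 8.74 and 9.79 in LD cells, 4.80, 4.68 and 5.64 in MaSC organoids, and 5.46, 4.82 and 5.27 in yMaSC organoids. LD B was the lowest of the LD samples here, unlike for Col3a1 and Col1a2, and more than 3 log2 separated LD cells from organoids. It differed by -4.32 ± 0.33 log2 (20.0-fold lower, adjusted p = 2.85e-05) and -4.18 ± 0.33 (adjusted p = 3.73e-05), and all 3 of its probe sets passed in both. Col8a2 was at 4.19, 4.30 and 4.63 in LD cells, 5.34, 5.32 and 6.30 in MaSC organoids, and 5.12, 5.27 and 5.21 in yMaSC organoids. It rose by 1.28 ± 0.25 (adjusted p = 0.00386) and 0.83 ± 0.25 (adjusted p = 0.0313), and every organoid was above every LD sample. The second call was lost without LD A or B or without any organoid from yMaSCs (adjusted p = 0.0654 to 0.094).

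Type VI collagen forms beaded filaments around cells from the chains Col6a1, Col6a2 and Col6a3. Col6a3 was at 9.14, 8.43 and 9.23 in LD cells, 5.40, 5.99 and 6.99 in MaSC organoids, and 6.57, 6.53 and 7.34 in yMaSC organoids. Its difference from LD cells was -2.81 ± 0.41 log2 (adjusted p = 0.000791) in MaSC organoids and -2.12 ± 0.41 (adjusted p = 0.00365) in yMaSC organoids, with LD B again lowest among LD cells. Its partners did not pass. Col6a1 was at 5.79, 6.56 and 4.64 in LD cells, 5.36, 6.01 and 7.96 in MaSC organoids, and 6.55, 5.60 and 6.38 in yMaSC organoids, a difference of 0.78 (95% interval -0.78 to 2.34) and 0.51 (-1.05 to 2.08). Col6a2 differed by 0.29 (-1.08 to 1.66) and -0.07 (-1.44 to 1.29). In both genes organoid C from MaSCs was the highest of all 9 arrays, at 7.96 and 8.66, and organoid C from yMaSCs was not. Col6a4, Col6a5 and Col10a1, the collagen of hypertrophic cartilage, lay below the median on every array and differed by -0.20 to 0.21.

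Within the basement membrane class of 9 chains, 2 rose and 1 fell in MaSC organoids, and 0 passed in yMaSC organoids. Of all genes 22.1% rose and 15.2% fell in MaSC organoids, and 35.9% passed in yMaSC organoids. Type IV collagen, the scaffold of every basement membrane, has 6 chains encoded by 3 pairs of genes that lie head to head. Col4a1 was at 7.95, 8.70 and 8.03 in LD cells, 6.79, 7.01 and 7.34 in MaSC organoids, and 7.17, 7.15 and 7.99 in yMaSC organoids. It differed by -1.18 ± 0.28 log2 (adjusted p = 0.0102) and -0.79 ± 0.28 (adjusted p = 0.0576), and the second probe set had -0.28 and -0.02 without passing (adjusted p = 0.352 and 0.947 over all probe sets). Its neighbor Col4a2 overlaps Col4a1 by 22 bases, counted from the starts used for the upstream windows. Col4a2 was at 5.93, 6.94 and 6.02 in LD cells, 6.58, 6.84 and 7.21, and 6.82, 6.87 and 7.67. It had 0.58 (adjusted p = 0.199) and 0.82 (adjusted p = 0.0801), of the opposite sign. LD B was the highest LD sample for both.

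Col4a5 and Col4a6, the pair on the X chromosome, went the same way. The starts used for their upstream windows lie 1343 bases apart. Col4a5 was at 9.33, 9.65 and 9.52 in LD cells, 10.33, 10.04 and 10.91 in MaSC organoids, and 10.07, 9.80 and 10.82 in yMaSC organoids. It rose by 0.93 ± 0.29 in MaSC organoids (adjusted p = 0.0333) and had 0.73 in yMaSC organoids (adjusted p = 0.0819). Col4a6, typical of myoepithelial and smooth muscle basement membranes, was at 6.84, 7.91 and 7.33 in LD cells, 8.17, 8.03 and 8.76, and 8.03, 7.87 and 8.44. It rose by 0.96 ± 0.29 (adjusted p = 0.0313) and had 0.75 in yMaSC organoids (adjusted p = 0.0787). A second probe set of each passed in both kinds of organoid, at 1.08 and 1.03 for Col4a5 (adjusted p = 0.0303 and 0.0367 over all probe sets) and 1.15 and 1.04 for Col4a6 (adjusted p = 0.0071 and 0.0122). The call for Col4a5 did not hold without LD A, B or C or, of the MaSC organoids, A or C (adjusted p = 0.0517 to 0.101), and that for Col4a6 without LD A or C, organoid A or C from MaSCs, or both organoids C (adjusted p = 0.0591 to 0.0975). Col4a3 and Col4a4, the pair of the kidney filter, differed by -0.11 to 0.37 and lay below the median on every array. Col7a1, the anchoring fibril under hemidesmosomes, was at 5.90 to 7.37 with differences of 0.01 and 0.14, and Col15a1 and Col18a1 differed by -0.25 to 0.22.

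Of the 9 FACIT chains only Col20a1 passed against LD cells, where 37.3% and 35.9% of all genes passed. It was at 5.66, 5.65 and 5.65 in LD cells, 5.05, 4.94 and 4.93 in MaSC organoids, and 5.14, 5.24 and 5.55 in yMaSC organoids. It differed by -0.68 ± 0.12 (adjusted p = 0.00195) and -0.34 ± 0.12 (adjusted p = 0.0494), the second lost without any single array but organoid C from yMaSCs (adjusted p = 0.0692 to 0.165). Among the remaining FACITs, organoids of 1 kind differed by letter in Col9a1, Col9a2, Col9a3, Col14a1 and Col16a1, taken up with the letters. Col12a1, Col19a1 and Col22a1 did not pass for the letter (limma F test, adjusted p = 0.137, 0.817 and 0.507).

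No collagen passed between the kinds of organoid. Of all genes 0% did, and 0 of 42 collagens, when yMaSC organoids were set against MaSC organoids in limma. At an unadjusted p under 0.05 stood 1 collagen, Col20a1, with 0.34 (95% interval 0.07 to 0.60), and 0.572% of all genes. The 3 values of each kind did not overlap for Col20a1 and Col8a2, 2 of 42, where 4.08% of all genes did not overlap. The difference had a 95% interval within 1 log2 for 26 of 42 collagens (93.2% of all genes) and within 2 log2 for 41 (98.9% of all genes). With the letter as a replicate block in the organoids alone, which takes out what organoids of 1 letter share, 37 intervals lay within 1 log2 and all 42 within 2, and still 0 collagens passed. The collagen furthest from 0 was then Col9a1, with 0.75 (0.22 to 1.27) and yMaSC organoids higher in all 3 letters, and Col6a3 had 0.69 (0.26 to 1.12), also higher in 3 of 3. For both the adjusted p was 0.964, and 7 collagens had an unadjusted p under 0.05 against 3.28% of all genes. For genes with great changes against LD cells, the interval of the difference between the kinds in that fit was -0.83 to 0.75 for Col17a1, -0.24 to 0.17 for Col3a1 and -0.36 to 0.64 for Col8a1.

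The letter divided the collagens instead. Among the 6 organoids, in a fit with the kind of organoid and the letter, 8 of 42 collagens passed the F test for the letter, where 5.52% of all genes passed. All 8 were higher in organoids C, whereas 3.14% of all genes passed with C higher and 2.37% with C lower. Of the 8, 5 are FACITs. Each adjusted p given for the letter comes from this F test over letters A, B and C. It is not a test of C against A and B alone. Both organoids C were above the other 4 for 21 of 42 collagens and below them for 0, where 17.1% of all genes were above and 17.8% below. The median of organoids C minus the mean of A and B was 0.31 log2 over the collagens and 0.01 over all genes. In a fit of 6 arrays, leaving out any 1 of them left 0 collagens past the test, with C minus A and B for the 8 staying positive (adjusted p = 0.106 to 0.294).

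Type IX collagen, a FACIT that decorates cartilage fibrils, has 3 chains, and all 3 followed the letter. RefSeq gives Col9a1 2 starts; their upstream windows, at chr1:24177360-24177609 and chr1:24194953-24195202 on the plus strand, are shown because the gene varied most between organoids of different letters, and the second held 1 match to CCAAT and the first none of the 6 motifs searched.
Col9a1 first start: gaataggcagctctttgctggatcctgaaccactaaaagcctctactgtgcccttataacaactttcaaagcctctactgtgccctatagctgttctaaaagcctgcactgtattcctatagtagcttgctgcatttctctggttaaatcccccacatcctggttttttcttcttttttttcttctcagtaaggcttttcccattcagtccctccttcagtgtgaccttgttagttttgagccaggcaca
Col9a1 second start: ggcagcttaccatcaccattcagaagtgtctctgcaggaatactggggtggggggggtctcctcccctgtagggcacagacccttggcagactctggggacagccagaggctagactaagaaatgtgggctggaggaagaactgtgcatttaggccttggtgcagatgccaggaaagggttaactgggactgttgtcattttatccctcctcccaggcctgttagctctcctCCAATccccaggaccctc
Col9a1 was at 5.82, 7.67 and 10.94 in organoids A, B and C from MaSCs and 6.44, 7.95 and 12.28 in yMaSC organoids. The LD samples were at 10.01, 6.44 and 9.91. Letter A was lowest and C highest in both kinds of organoid, and LD B stood apart from LD A and C. Organoids C exceeded the mean of A and B by 4.20 log2 in MaSC and 5.09 in yMaSC organoids (4.64 in both, adjusted p of the letter = 0.00442), while the differences between organoids and LD cells were -0.64 and 0.10 with 95% intervals of -4.65 to 3.36 and -3.9 to 4.11. A second probe set had 3.45 for C against A and B (adjusted p = 0.0183 over all probe sets).

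Col9a2 was at 5.3, 5.45 and 7.32 in organoids A, B and C from MaSCs, 5.46, 5.36 and 6.76 in yMaSC organoids, and 4.74, 4.70 and 5.35 in LD cells. C exceeded A and B by 1.65 (adjusted p = 0.019). Col9a3 was at 7.62, 7.76 and 9.46, then 7.71, 7.65 and 9.35, and 6.93, 6.92 and 7.89 in LD cells. Its C exceeded A and B by 1.72 (adjusted p = 0.0054), and the second-brightest probe set by 1.64 (adjusted p = 0.0064 over all probe sets). For these chains, unlike for Col9a1, A and B were nearly level.

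Col14a1, a FACIT of dense connective tissue, was at 4.51, 4.57 and 6.14 in MaSC organoids, 4.56, 4.95 and 6.54 in yMaSC organoids, and 4.15, 4.63 and 4.43 in LD cells. C exceeded A and B by 1.69 (adjusted p = 0.00724), and all 3 probe sets passed. Col16a1 was at 6.87, 7.19 and 8.51, then 7.23, 7.12 and 8.61, and 8.83, 7.89 and 9.30 in LD cells, so organoids C lay within the LD range and A and B below it. Its C exceeded A and B by 1.46 (adjusted p = 0.0113).

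Outside the FACITs, Col5a2, the fibril-starting chain, was at 5.41, 4.75 and 6.73 in MaSC organoids, 5.59, 4.84 and 6.43 in yMaSC organoids, and 5.67, 7.07 and 4.25 in LD cells. C exceeded A and B by 1.43 (adjusted p = 0.0122), whereas LD C was the lowest of the LD samples. The second Col5a2 probe set had 0.50 without passing (adjusted p = 0.219 over all probe sets). Col4a5 and Col4a6, whose values are given above, had 0.81 and 0.58 (adjusted p = 0.0204 and 0.0461). With the adjustment over all probe sets, neither Col4a6 probe set passed for the letter (adjusted p = 0.0599 and 0.0769). Col17a1 had 1.85 and Col18a1 1.69 without passing the F test (adjusted p = 0.053 and 0.0945), and a second Col18a1 probe set had 2.71 and passed (adjusted p = 0.0436 over all probe sets). The fibrillar Col1a1, Col1a2 and Col3a1 did not pass for the letter, with -0.06, 0.29 and 0.21.

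**Figure D4:**
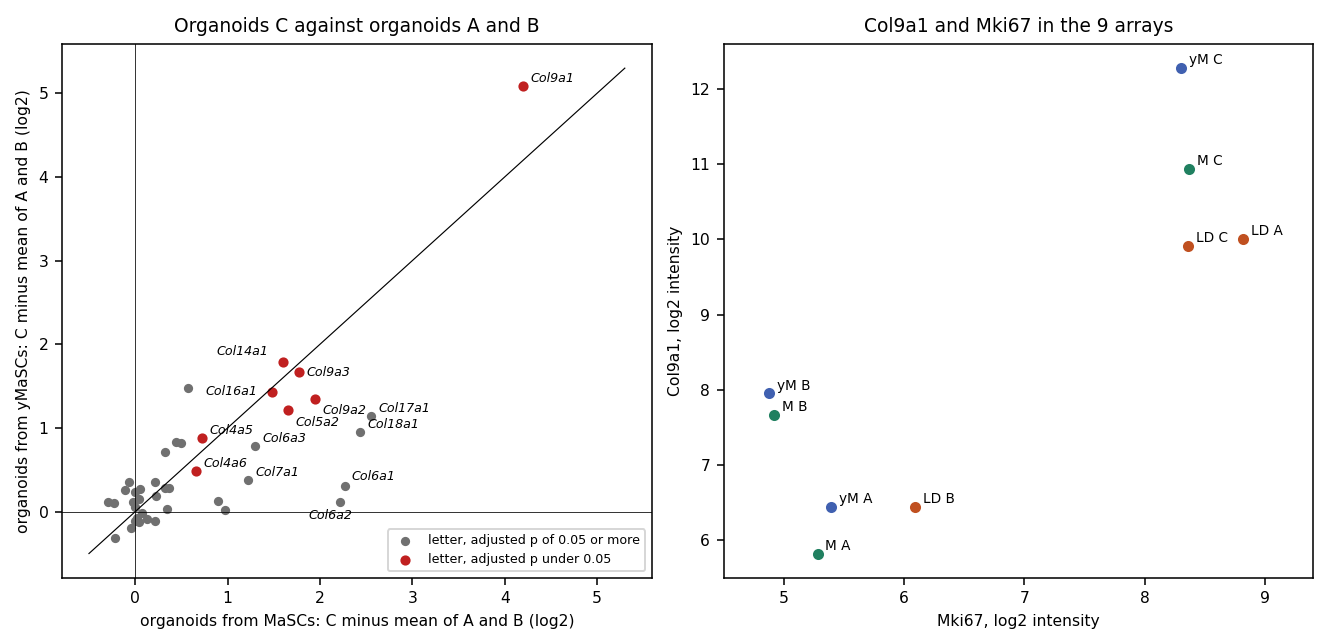
Left, organoids C minus the mean of organoids A and B (log2) in MaSC organoids (horizontal axis) and yMaSC organoids (vertical axis) for 42 collagen genes, with the line of equal differences, red where the letter passed at an adjusted p under 0.05. Right, log2 intensity of Col9a1 (vertical axis) against Mki67 (horizontal axis) in the 9 arrays: the 4 arrays with Mki67 above 8 have Col9a1 at 9.91 to 12.28, and the other 5 have it at 5.82 to 7.95.

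Markers of division moved with the letter. All 5 measured proliferation markers were higher in organoids C than in A and B, with a median of 2.45 log2, and all 5 passed. Of 10 basal and myoepithelial markers 3 passed and all 10 were positive, with a median of 1.30. Of all 18194 genes 3.14% passed with C higher, 9370 were positive and the median was 0.01. The summed intensity of the proliferation markers ran from 129 to 911 in MaSC organoids, 136 to 871 in yMaSC organoids and 214 to 1269 in LD cells. Col9a1 was high in the same arrays as Mki67 and low in the others: Mki67 was at 8.82 and 8.36 in LD A and C and 6.09 in LD B, where Col9a1 was low. The 5 genes most like Col9a1, of 1254, were Ankrd22, Nusap1, Cenpf, Aspm and Il33, with Pearson's r of 0.906 to 0.935 over 9 arrays. Nusap1, Cenpf and Aspm are known to act on the mitotic spindle. The part of division in these collagen values was not tested.

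Markers of cartilage, the tissue for which type IX and type XI are best known, passed in 3 of 10 cases in each comparison, below the 37.3% and 35.9% of all genes. Acan, the main proteoglycan of cartilage, was at 3.92 to 4.24 over all 9 arrays, and Hapln1, Matn1 and Matn3 were at 2.46 to 3.02, below the lower quartile. Comp rose, by 1.98 and 1.68 log2 (adjusted p = 0.0252 and 0.0494), and Cnmd and Snorc fell in both comparisons.

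Of 21 measured enzymes and chaperones that modify and fold collagen chains, 10 rose, 0 fell and 11 did not pass in each kind of organoid, where 22.1% and 21.6% of all genes rose. The difference was negative for 7 of the 21, and the median difference was 0.76 and 0.81 log2. Plod2, the lysyl hydroxylase of the chain ends used in cross-links, was at 5.54, 5.82 and 5.21 in LD cells, 8.48, 7.96 and 8.40 in MaSC organoids, and 8.38, 8.02 and 8.98 in yMaSC organoids, rises of 2.76 ± 0.26 and 2.94 ± 0.26 (adjusted p = 7.96e-05 and 6.4e-05). Tmem38b, an ion channel of the endoplasmic reticulum needed for collagen secretion, rose by 2.0 and 1.97. Fkbp14, a prolyl isomerase, rose by 1.76 and 1.56, and P4ha1, a catalytic subunit of prolyl 4-hydroxylase, by 1.41 and 1.77. The complex that 3-hydroxylates proline was represented by P3h1 and Crtap, which rose, and Ppib, which had 0.06 and 0.12. Serpinh1, the collagen chaperone Hsp47, had 0.76 and 0.81 and did not pass, but was higher in organoids C than A and B. P4ha2, another prolyl 4-hydroxylase subunit, had -1.67 and -0.75 with intervals that crossed 0, and exceeded A and B in organoids C by 2.22 log2 (adjusted p of the letter = 0.0599). Without both organoids C, 10 of the 21 rose and 2 fell in MaSC organoids, and 10 rose and 1 fell in yMaSC organoids. These enzymes act on many collagens, so their levels do not say which chain they served.

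**Figure D5:**
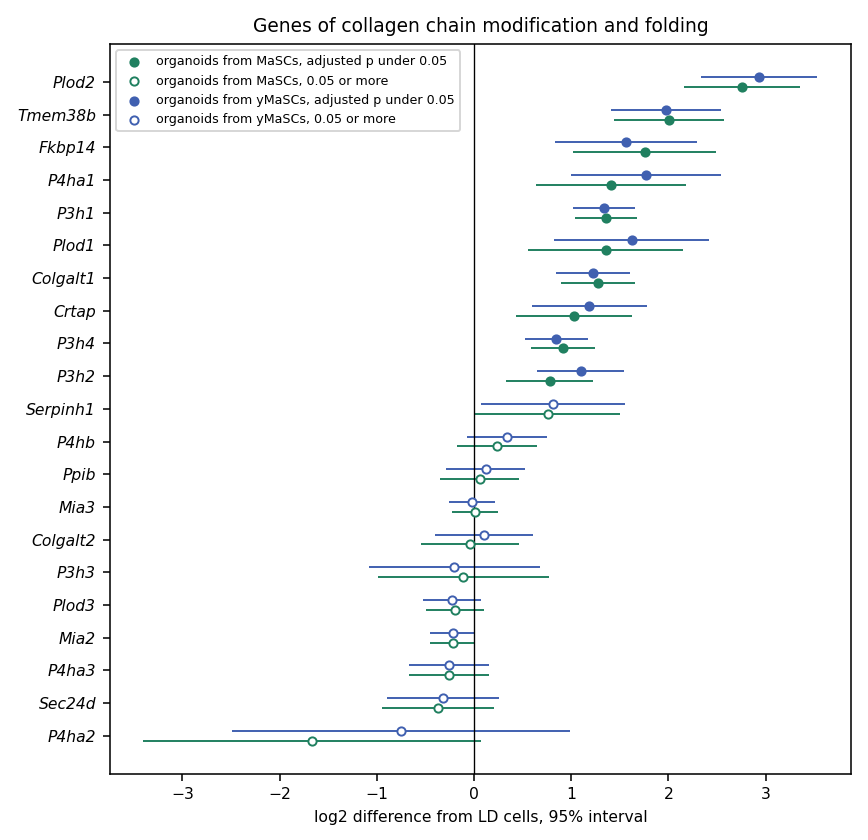
Log2 difference from LD cells with its 95% interval (horizontal axis) for 21 genes of collagen chain modification and folding (vertical axis), in MaSC organoids (green) and from yMaSCs (blue), filled where the adjusted p was under 0.05. The 10 genes from Plod2 down to P3h2 are filled in both and lie above 0.

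Of 11 genes for propeptide removal and cross-linking, 1 rose and 4 fell in MaSC organoids and 1 rose and 3 fell in yMaSC organoids. Without regard to direction this was close to the share of all genes that passed (37.3% and 35.9%). By direction, 22.1% and 21.6% of all genes rose, and 15.2% and 14.3% fell. Pcolce, which speeds removal of the C-terminal propeptide of fibrillar collagens, had -2.29 and -2.37 (adjusted p = 6.83e-05 and 6.38e-05), and was at 6.99 to 7.33 in LD cells against 4.52 to 5.33 in organoids. Pcolce2, its relative, had -1.38 and -1.43, while Loxl3, a lysyl oxidase, rose by 1.68 and 1.60. Loxl1, a lysyl oxidase best known for elastic fibers, had -0.48 and -0.55. Of 9 collagen receptors 1 passed in each comparison, below the 37.3% and 35.9% of all genes. This was Itga2, the integrin chain of the main epithelial collagen receptor, with -1.22 and -1.01 (adjusted p = 0.000457 and 0.00134). Of 14 small proteoglycans and fibril partners, 11 did not pass in MaSC organoids and 12 did not in yMaSC organoids, so the share that passed was below that of all genes. Prelp, which anchors basement membranes, rose by 2.68 and 2.39. Postn, a partner of type I fibrils, rose by 2.35 in MaSC organoids and had 2.07 in those from yMaSCs (adjusted p = 0.059). Lum, which limits fibril growth, had -2.59 and -2.28. Fn1, the fibronectin on which collagen fibrils are laid, had 0.07 and -0.09 without passing, and exceeded A and B in organoids C by 3.01 log2 (adjusted p of the letter = 0.00808).

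Upstream windows of RefSeq (GRCm38.p6) were found for 33 of 42 measured collagens. Over the 38 windows of collagen genes, a GC box (GGGCGG) was in 22 and CCAAT in 13, against 32.7% and 33.8% of 32851 windows of all genes. TATAAA was in 5 and GGAATG in 4, against 12.4% and 12.6% of all, and the AP-1 motif TGANTCA and the SOX motif AACAAT were in 1 each, against 6.75% and 9.42%. GGAATG lay before Col3a1, Col6a2, Col18a1 and Col20a1, and TATAAA before Col3a1, Col10a1, Col11a2, Col13a1 and Col17a1. No motif letters overlapped those of another motif in the windows shown. These matches describe letters in 250 bases and not bound sites.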

How the data were processed

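Affymetrix mouse arrays measured RNA of 3 samples a group. The authors deposited log2 intensities made with RMA, which subtracts background, equalizes the arrays' distributions and summarizes each probe set. The sources used here do not give its version. The small number of arrays limits the precision. The table held 0 columns of other samples.

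Probe sets were named from the platform annotation: 34958 of 45101 had 1 gene, 932 several and 9211 none, and 34754 were found in RefSeq by gene identifier. For each of 18194 genes (9012 with several probe sets) the one with the highest mean was used, with no filter. With R 4.3.3 and limma 3.58.1, 3 group means were fitted, with empirical Bayes spread and Benjamini-Hochberg adjustment over all genes at 0.05. Values "over all probe sets" come from the same fit on all 45101 probe sets, with the adjustment over all of them. The letter was tested in the 6 organoids by limma's F test, in a fit with the kind of organoid. Code was tested on simulated data. P-values of the group comparisons measure spread between samples labeled as biological replicates. Those of the letter test do not, because there the letters are the effect tested. Its spread is what remains between the kinds of organoid within a letter.

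Same-letter organoids deviated together from their group means (r = 0.607, 0.611 and 0.649 across genes), and LD cells did not follow them (r = -0.046 to 0.045). Across all genes the letters thus paired organoids only. Across the collagens alone r was 0.623 to 0.833 between organoids of 1 letter. Between LD cells and organoids of 1 letter it was -0.587 to 0.361. The members and lists were chosen with earlier results of these data known. By rule, each collagen that passed is given by array, up to 8 a class, with up to 4 genes of each other list. Alternatives were averaging a gene's probe sets, keeping genes above the median, cyclic loess, quantile normalization, another prior, array weights, the letter as a block, the compared groups alone, a 2-fold limit, no organoids C, and each array left out.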

Additional observations from a re-analysis of the deposited data

How the results depend on the processing

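Of 23 calls against LD cells, 14 were lost under none of the alternatives in which the gene was tested: Col17a1, Col11a1, Col3a1, Col1a2, Col8a1 and Col6a3 in both kinds of organoid, and Col4a1 and Col8a2 in organoids from MaSCs. For 7 of these 14 (Col17a1, Col3a1 and Col1a2 in both, Col8a2) the limit to genes above the median left the gene out. For 8 of the others the call was lost without 1 array. No result reversed. In organoids from MaSCs the count of 14 collagens became 6 among genes above the median of mean values, where 14 collagens were tested, 8 with a 2-fold limit, and 9 to 13 without 1 array. In organoids from yMaSCs the count of 9 became 4 among genes above the median and 6 to 9 without 1 array. With the letter as a replicate block over all arrays the counts were 16 and 12, and 0 between the organoids, as in organoids alone. The 8 calls for the letter became 0 to 0 without 1 array, where 1 residual degree of freedom is left, and 7 to 11 under the other alternatives; the cause was not tested. Without both organoids C the median difference of the collagens was -0.18 in organoids from MaSCs. With 3 arrays a group, a collagen with an interval as wide as that of Col9a1 was not resolved against LD cells, and levels below the lower quartile give no more than a bound.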
